A study of Rattus norvegicus with 6 samples.

Results

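The genes described here are the liver X receptor gene Nr1h3, its targets, and the enzymes of fatty acid synthesis, in rat bone marrow mesenchymal stem cells (BMSCs) given ginsenoside Rb1, a saponin of ginseng. All 10 genes chosen (Nr1h3, Srebf1, Fasn, Acaca, Acly, Pltp, Abca1, Abcg1, Mylip and Elovl6) were found by symbol, with 1 row each, among 21797 genes of the deposited table. They were chosen with their Rb1 against DMSO differences in the same libraries already known, so these differences are given as a description and without a test. The RNA-seq profile held 2 groups of 3 libraries. The cells were labelled Bone marrow-derived stem cell and were used at passages 2 to 3, from Sprague–Dawley rats 4 weeks old that the labels call female and the paper calls male. One group received ginsenoside Rb1 at 20 μM for 24 h, and the other is labelled DMSO, the solvent. The primary cultures were grown in DMEM with fetal bovine serum. Neither the labels nor the paper tell whether replicates were independent cultures, and the p-values therefore reflect library-to-library spread that may be technical. Values after ± are SD over the 3 libraries of a group (n = 3).

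Liver X receptors are nuclear receptors that bind oxysterols and work as partners of the retinoid X receptors. They switch on genes that move cholesterol out of the cell (Abca1, Abcg1), transfer phospholipid between lipoproteins (Pltp) and limit lipoprotein uptake (Mylip), and they switch on Srebf1. Srebf1 encodes SREBP-1, a transcription factor that in turn drives the enzymes of fatty acid synthesis: Acly makes acetyl-CoA from citrate, Acaca carboxylates it, Fasn builds palmitate and Elovl6 lengthens it. In marrow stromal cells, which can become osteoblasts or adipocytes, the enzymes of fatty acid synthesis supply membrane lipid and serve the adipocyte fate.

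The promoters are shown first, because Srebf1, at its downstream start, and Abca1 carry related elements of the liver X receptor kind. Any relation of these elements to the differences was not tested. RefSeq (assembly GRCr8) gave windows of 250 bases before to 50 bases after the annotated start for 6 of the 10 genes, and the gene numbers of all 6 matched the deposited table. Srebf1 has a window at each of 2 starts, which makes 7 windows in all. Fasn, Acaca, Abcg1 and Elovl6 had no window in the tables used here. The 250 bases before each start are printed 5′ to 3′ on the strand of the gene, with motif matches in capitals: an element of the liver X receptor kind, the inverted CCAAT box, the GC box and the E-box. These are the upstream start of Srebf1 (chr10:45529165-45529414, minus strand), the downstream start of Srebf1 (chr10:45519011-45519260, minus strand) and the start of Abca1 (chr5:72596474-72596723, minus strand).
Srebf1, upstream start: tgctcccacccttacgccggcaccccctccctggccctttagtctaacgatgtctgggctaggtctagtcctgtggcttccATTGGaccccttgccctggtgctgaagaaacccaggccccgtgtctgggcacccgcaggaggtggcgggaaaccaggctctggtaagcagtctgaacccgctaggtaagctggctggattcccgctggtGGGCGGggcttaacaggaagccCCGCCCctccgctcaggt
Srebf1, downstream start: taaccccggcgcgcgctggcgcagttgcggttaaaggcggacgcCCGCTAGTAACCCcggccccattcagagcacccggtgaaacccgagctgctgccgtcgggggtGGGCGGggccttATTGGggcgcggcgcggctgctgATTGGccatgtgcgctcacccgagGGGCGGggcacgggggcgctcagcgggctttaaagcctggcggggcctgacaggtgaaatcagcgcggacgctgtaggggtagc
Abca1: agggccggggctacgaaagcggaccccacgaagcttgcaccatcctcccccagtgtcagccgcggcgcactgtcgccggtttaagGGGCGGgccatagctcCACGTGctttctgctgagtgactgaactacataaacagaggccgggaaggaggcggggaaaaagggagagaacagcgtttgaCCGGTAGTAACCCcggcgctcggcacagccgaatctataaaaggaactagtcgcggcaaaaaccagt

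Liver X receptors bind a direct repeat of a short unit with a spacer of 4 bases, and an element of this kind is known from the human and mouse Abca1 promoters. In the rat windows it reads as follows on its own strand, with the places of the repeated units in capitals and the spacer in lower case. The Srebf1 stretch was marked by its likeness to that of Abca1, and its units in capitals are not alike. Binding of the receptor to either stretch was not tested. The element lies from 70 to 55 bases before the start of Abca1 (chr5:72596528-72596543) and from 209 to 194 bases before the downstream start of Srebf1 (chr10:45519204-45519219).
Abca1 element: GGGTTActacCGGTCA
Srebf1 element: GGGTTActagCGGGCG
The stretch that both elements share, searched on both strands with 1 free letter in the spacer, occurred in these windows and in no other of the 33469 promoter windows of the table (0.00598% of them). The motif was spelled from these sequences after they were read, so finding it in both is no result. The strict direct repeat of AGGTCA with a spacer of 4 bases (0.00598% of all windows), the single unit AGGTCA (16.2%), the full sterol regulatory element (0.125%) and its cores TCACCCCA (1.37%) and CACCCCA (6.93%), the shorter held in the longer, had no match in any of the 7 windows of these genes. The inverted CCAAT box ATTGG, which NF-Y binds, matched in 4 of the 7 windows and in 37.5% of all windows. The GC box GGGCGG, which Sp1 binds, matched in 5 of the 7 and in 33.1% of all. The E-box CACGTG matched in Abca1 alone of the 7, and in 6.42% of all windows. The windows of Nr1h3 and Pltp held none of the motifs. The deposited values are per gene, so the fragments of Srebf1 are not divided between its starts.

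**Figure D1:**
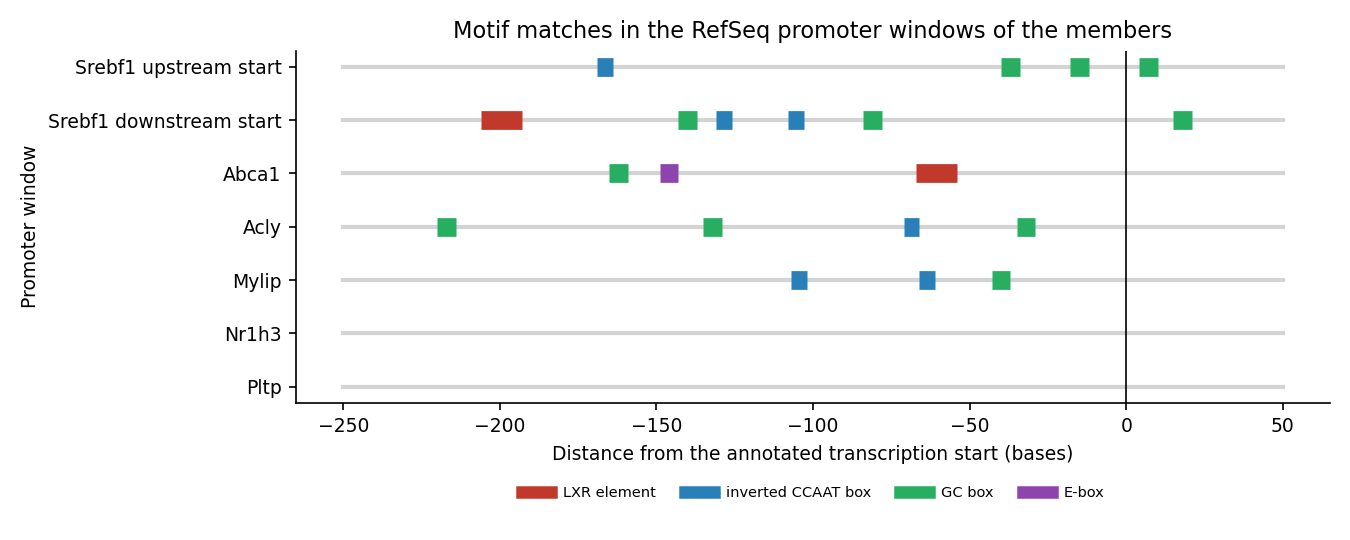
Positions of motif matches on either strand in the 7 promoter windows, in bases from the annotated start, which is at 0. The element of the receptor kind (red) lies closer to the start of Abca1 than to the downstream start of Srebf1, and the windows of Nr1h3 and Pltp are empty.

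The libraries held between 8197155 and 14177066 fragments each. Rb1 replicate 1 was the shallowest, and its mean correlation with its own group (0.972) was below that of each other library (at least 0.980). Mitochondrially encoded genes took 18.1% to 24.8% of the FPKM total with Rb1 and 10.2% to 18.5% with DMSO. FPKM is the number of fragments per length of transcript, scaled to the mapped total of the library, so it compares levels between genes per length. Differences are on the log2(FPKM + 1) scale, which shrinks differences of genes with few FPKM. limma was fitted across 10781 genes, those that reached 1 FPKM in 3 or more libraries, with Benjamini-Hochberg adjustment over all of them.

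Srebf1, Fasn and Pltp were at a lower level in every Rb1 library than in any DMSO library, at 53.2%, 55.0% and 64.1% of the DMSO mean, whereas Nr1h3 itself, Acly and Abca1 had overlapping groups. Abcg1 and Mylip were lower by smaller amounts without overlap, Acaca overlapped, and Elovl6 was at or near 0. All 9 genes that passed the filter were lower with Rb1 by value, where 59% of all genes tested were. Of these, Nr1h3 turned higher under median scaling and quantile normalization, and Abca1 under quantile normalization. The groups of 5 of the 9 did not overlap, with Rb1 lower, against 20.3% of all genes tested. These counts describe genes picked on this contrast and carry no evidence of their own. The median log2 difference of the 9 was −0.29, and that of all genes tested was −0.07.

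**Figure D2:**
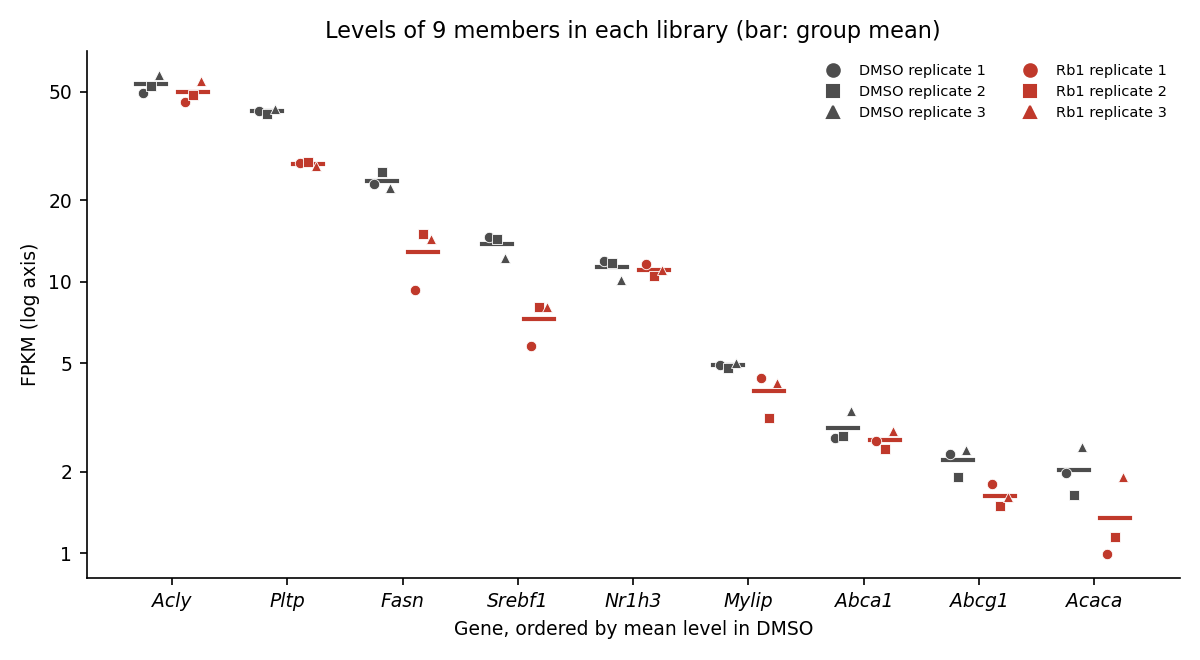
FPKM on a log axis in each of the 6 libraries for the 9 genes above the filter, ordered by mean level in DMSO, with DMSO in grey and Rb1 in red, a marker for each replicate and a bar at each group mean. Pltp, Fasn and Srebf1 show clear gaps between the groups, and Rb1 replicate 1 is the lowest point for Fasn, Srebf1, Acaca and Acly.

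Nr1h3 encodes the liver X receptor alpha. Its level was 11.7, 10.5 and 11.03 FPKM in Rb1 replicates 1, 2 and 3 and 12.0, 11.8 and 10.1 FPKM in DMSO replicates 1, 2 and 3. The groups overlapped, with a log2 difference of −0.02 (standard error 0.12). The direction of so small a value was not stable, as it turned without Rb1 replicate 2, DMSO replicate 1 or DMSO replicate 2. The gene (ENSRNOG00000013172) lies on chromosome 3 from 80004129 to 80012750 on the minus strand, in coordinates of the table, which does not name its rat build.

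Srebf1, the receptor's target that encodes SREBP-1, was at 5.82, 8.04 and 8.04 FPKM in the Rb1 libraries and at 14.6, 14.3 and 12.3 FPKM in the DMSO libraries. Every Rb1 library lay under every DMSO library, and Rb1 replicate 1 lay under the other Rb1 libraries. The log2 difference was −0.84 (standard error 0.15), and 126 of the 10781 genes tested had a difference this low or lower. Without Rb1 replicate 1 it was −0.70. The values rest on 210, 454 and 505 fragments with Rb1 and on 656, 677 and 671 fragments with DMSO. The table places Srebf1 (ENSRNOG00000003463) on chromosome 10 from 46511270 to 46593009 on the minus strand.

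Of the enzymes of fatty acid synthesis, Fasn showed the lowest value relative to DMSO. Fatty acid synthase was at 9.34, 14.98 and 14.4 FPKM with Rb1 and at 22.8, 25.4 and 22.2 FPKM with DMSO, again without overlap and with Rb1 replicate 1 the lowest. The log2 difference was −0.84 (standard error 0.18), and −0.64 without Rb1 replicate 1. Fasn (ENSRNOG00000045636) lies on chromosome 10 from 109987734 to 110005901.

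Acaca, the acetyl-CoA carboxylase whose product Fasn uses, was at 0.995, 1.15 and 1.91 FPKM with Rb1 and at 1.98, 1.63 and 2.47 FPKM with DMSO. Rb1 replicate 3 lay above DMSO replicate 2, so the groups overlapped. The log2 difference of −0.37 (standard error 0.18) rests on 53 to 197 fragments per library. With a pseudocount of 0.1 in place of 1 the difference was −0.58, a size set in part by the pseudocount at this low level. Acaca (ENSRNOG00000034013) is placed on chromosome 10 from 71536532 to 71719910.

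Acly, the ATP citrate lyase at the head of the pathway, was the most abundant of the 10 genes. Its level was 45.8, 48.9 and 55.0 FPKM with Rb1 and 49.7, 52.6 and 57.9 FPKM with DMSO. The groups overlapped broadly, with a log2 difference of −0.10 (standard error 0.12). It was −0.04 without Rb1 replicate 1 or DMSO replicate 3, −0.17 without Rb1 replicate 3, and −0.01 with median scaling. Acly (ENSRNOG00000016924) is placed on chromosome 10 from 88392247 to 88442845. Elovl6, the elongase that makes stearate from palmitate, had 0 fragments in each Rb1 library and 1, 0 and 1 in the DMSO libraries. A count of 0 allows up to 3 fragments, or 0.371 FPKM in the shallowest Rb1 library, for counting error only. Both groups lay under this limit, so no fold is given. Elovl6 (ENSRNOG00000010468) is placed on chromosome 2 from 234189104 to 234296145.

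Pltp, the phospholipid transfer protein, had the tightest groups of all. It was at 27.3, 27.5 and 26.7 FPKM with Rb1 and at 42.5, 41.5 and 43.1 FPKM with DMSO. The coefficient of variation was 1.61% with Rb1 and 1.98% with DMSO, and the gap between the groups was far wider than either. The log2 difference was −0.62 (standard error 0.10). It lay between −0.64 and −0.61 on leaving out each library in turn, so no single library decided it. Pltp (ENSRNOG00000016488) lies on chromosome 3 from 161296303 to 161322289.

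The pumps of cholesterol efflux had smaller differences than Pltp by value, which was not tested. Abca1, which loads cholesterol onto lipid-poor apolipoprotein, was at 2.60, 2.42 and 2.81 FPKM with Rb1 and at 2.65, 2.70 and 3.35 FPKM with DMSO. The groups overlapped, and the log2 difference of −0.11 (standard error 0.12) was −0.03 without DMSO replicate 3. Abcg1, which passes cholesterol to HDL, was at 1.797, 1.49 and 1.61 FPKM with Rb1 and at 2.31, 1.92 and 2.41 FPKM with DMSO. Its groups did not overlap, by a margin between Rb1 replicate 1 and DMSO replicate 2 that was smaller than the SD of either group. The log2 difference was −0.29 (standard error 0.12), from 53 to 106 fragments per library. Abca1 (ENSRNOG00000018126) is placed on chromosome 5 from 69851170 to 69983015. Abcg1 (ENSRNOG00000001158) is placed on chromosome 20 from 9743268 to 9840489.

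Mylip encodes a ubiquitin ligase that marks lipoprotein receptors for degradation. It was at 4.44, 3.14 and 4.25 FPKM with Rb1 and at 4.94, 4.80 and 5.03 FPKM with DMSO. The groups did not overlap, and Rb1 replicate 2 was far below the others. The log2 difference of −0.27 (standard error 0.14) was −0.15 without that library. Mylip (ENSRNOG00000017579) is placed on chromosome 17 from 19682039 to 19703681.

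**Figure D3:**
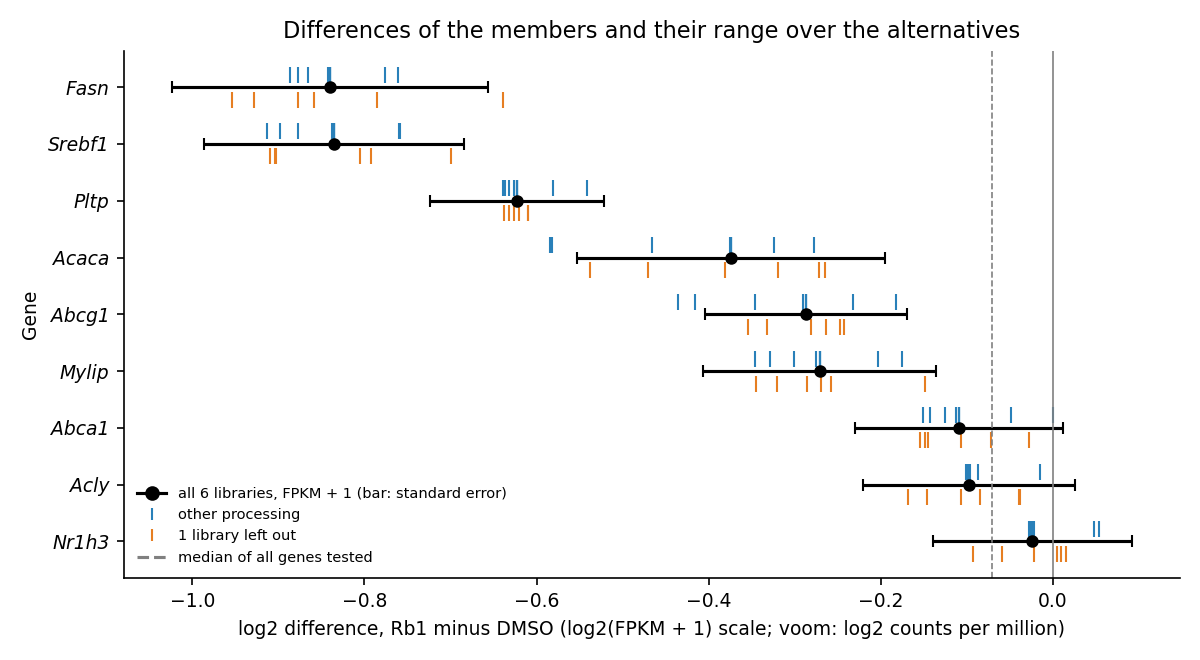
Log2 difference (Rb1 minus DMSO) of each of the 9 genes with its standard error (black), under other processing (blue marks) and with each library left out in turn (orange marks), with the median of all genes tested as a dashed line. The differences of Fasn, Srebf1 and Pltp stayed below −0.5 in every setting, and those of Nr1h3 and Abca1 reached 0 or crossed it.

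The order of the levels differed between the groups at 1 place. With DMSO it ran Acly, Pltp, Fasn, Srebf1, Nr1h3, Mylip, Abca1, Abcg1, Acaca and Elovl6, and only Abcg1 and Acaca had overlapping ranges as neighbours. With Rb1 Nr1h3 stood above Srebf1. The ranges of Fasn and Nr1h3 then overlapped, as did those of Abcg1 and Acaca. In terms of all genes tested, the DMSO mean of Acly lay above 84.0% of genes, that of Nr1h3 above 50.6% and that of Acaca above 10.6%.

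Ratios between genes of a library are free of any scaling of that library. The genes of these pairs were chosen with their differences known, so a gap between the groups is a description and no test. The FPKM ratio of Srebf1 to Nr1h3 was 0.499, 0.765 and 0.729 with Rb1 and 1.22, 1.22 and 1.21 with DMSO. Srebf1 was thus the more abundant transcript in every DMSO library and the less abundant in every Rb1 library. The ratio of Pltp to Nr1h3 was 2.46 ± 0.15 with Rb1 and 3.78 ± 0.41 with DMSO, without overlap. The ratio of Fasn to Acly was 0.258 ± 0.051 with Rb1 and 0.442 ± 0.052 with DMSO, again without overlap. By contrast, the ratio of Fasn to Srebf1 was 1.60, 1.86 and 1.79 with Rb1 and 1.57, 1.77 and 1.81 with DMSO. These groups overlapped, and Rb1 replicate 1, lowest for both genes, lay within the range of the DMSO libraries. The ratio of Acaca to Acly, which is not plotted, also overlapped, at 0.0217, 0.0236 and 0.0348 with Rb1 and 0.0398, 0.0311 and 0.0426 with DMSO.

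**Figure D4:**
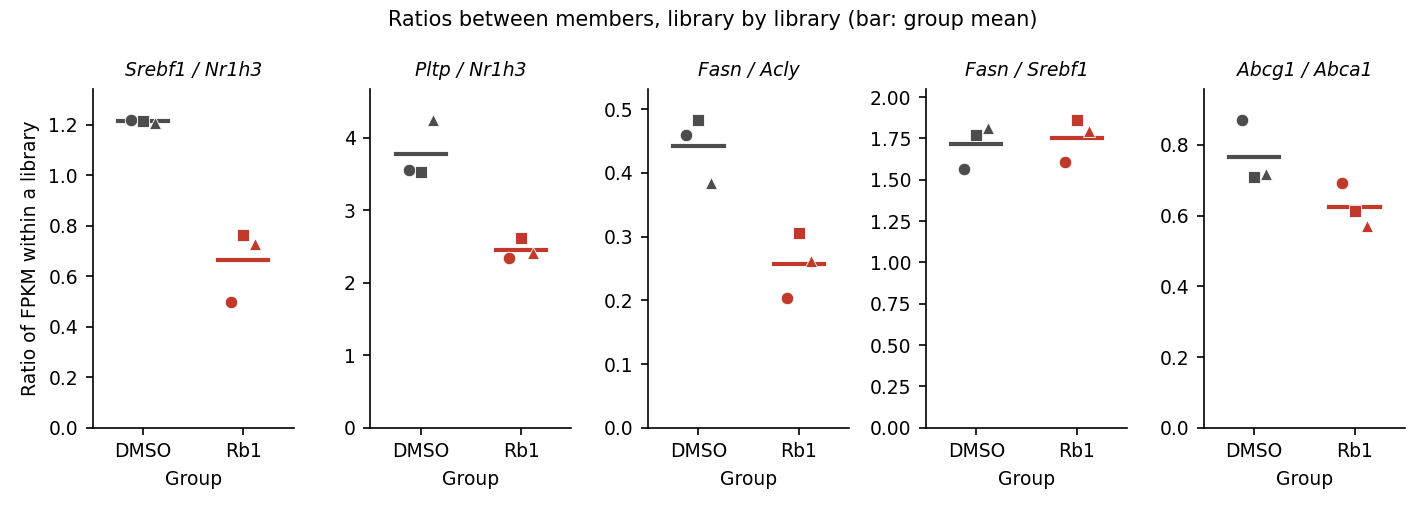
Ratio of FPKM between pairs of genes within each library, on axes that start at 0, with a marker per replicate and a bar at each group mean. The ratio of Fasn to Srebf1 overlaps between the groups, and the other 4 ratios plotted are lower with Rb1 without overlap. The genes were chosen with their differences known.

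Beyond these 10 genes, the partners of the receptor and the rest of lipid synthesis were examined in 7 lists, and 69 of their 86 genes passed the filter. limma called none at an adjusted p of 0.05, a level that 0.0186% of all genes tested passed (0.00928% higher and 0.00928% lower), and voom on recovered fragments also called 0. Before adjustment 4 were higher with Rb1 and 21 lower at p under 0.05, where 8.27% and 14.6% of all genes tested were. With median scaling 7 were higher and 11 lower. Without DMSO replicate 1 or DMSO replicate 3 the lower count was 12. The shares of 8.27% higher and 14.6% lower over all genes tested are also the yardstick for the counts of each list below. Whether any list departs from these shares was not tested.

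Of 10 tested receptor partners and coregulators, 3 were lower at an unadjusted p under 0.05. Rxra, a retinoid X receptor with which the liver X receptor pairs, averaged 6.39 ± 2.79 FPKM with Rb1 against 11.6 ± 0.18 FPKM with DMSO (adjusted p = 0.147 from limma). Its Rb1 values were 3.56, 6.46 and 9.14 FPKM, so the wide spread came from all Rb1 libraries. Rxrb, another retinoid X receptor, had a log2 difference of −0.62 (adjusted p = 0.149 from limma). Nr1h2, the liver X receptor beta, was the more abundant receptor, averaging 41.6 ± 9.23 FPKM with Rb1 against 55.2 ± 5.34 FPKM with DMSO. Its groups did not overlap, and its adjusted p was 0.224 from limma. The corepressor Ncor1 and the coactivators Ncoa1, Ncoa6 and Nrip1, the last a corepressor in many settings, differed by −0.07 to 0.01 on the log2 scale. The coactivators Ncoa2 and Ncoa3 differed by −0.29 and −0.36 (adjusted p = 0.291 and 0.235 from limma). Of the 3 tested enzymes that make or clear oxysterols, Ch25h, Cyp27a1 and Cyp7b1, none had an unadjusted p under 0.05.

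Of 8 other tested receptor targets, 2 were lower at that threshold. Apoe, the apolipoprotein that carries cholesterol out of macrophages and stromal cells, averaged 2087 ± 131 FPKM with Rb1 against 2675 ± 287 FPKM with DMSO (adjusted p = 0.170 from limma). Scd2, a stearoyl-CoA desaturase, had a log2 difference of −0.31 (adjusted p = 0.185 from limma), and its paralog Scd, which may share reads with it, one of −0.11. Lpcat3, a lysophospholipid acyltransferase, differed by −0.11, and Lpl, the lipoprotein lipase, by 0.24. Mlxipl and Arl4c were not analysed here, and Abcg5, Abcg8 and Cyp7a1, which belong to liver and gut, were below the filter.

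Of 23 other tested enzymes and carriers of fatty acid and glycerolipid synthesis, 2 were higher with Rb1 and 7 lower before adjustment. The higher ones, Acsl3 and Acsl4, activate long-chain fatty acids, and had log2 differences of 0.59 and 0.67 (adjusted p = 0.118 and 0.117 from limma). Acsl4 averaged 20.6 ± 1.19 FPKM with Rb1 against 12.6 ± 1.73 FPKM with DMSO. Among the lower ones Slc25a1, the carrier that exports citrate to Acly, had a log2 difference of −0.49 (adjusted p = 0.122 from limma). The others were the elongase and desaturase genes Elovl5 (−0.48) and Fads1 (−0.28) and the triglyceride synthesis genes Dgat1 (−0.30), Dgat2 (−0.32), Lpin1 (−0.56) and Agpat1 (−0.56). The groups of Lpin1 overlapped, at 0.977 to 2.51 FPKM with Rb1 and 2.41 to 3.39 FPKM with DMSO. Its value in Rb1 replicate 1 rests on 25 fragments. Acss2, which makes acetyl-CoA from acetate, differed by 0.02, and Me1, a source of NADPH, by −0.18.

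Of the 7 genes that process SREBP, Scap and Srebf2 were lower at that threshold. Scap, the escort of SREBP to the Golgi, and Srebf2, which encodes SREBP-2, had log2 differences of −0.61 and −0.59 (adjusted p = 0.126 and 0.135 from limma). The ratio of Srebf1 to Srebf2 was 0.374 ± 0.032 with Rb1 and 0.461 ± 0.041 with DMSO, without overlap. Insig1 and Insig2, which hold SREBP in the endoplasmic reticulum, differed by −0.12 and −0.28.

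Targets of SREBP-2 went both ways by value, with 2 of 16 higher with Rb1 and 7 lower before adjustment. Idi1, an isomerase of isoprenoid synthesis, averaged 35.4 ± 3.03 FPKM with Rb1 against 18.9 ± 3.19 FPKM with DMSO (adjusted p = 0.117 from limma). Hmgcs1 had a log2 difference of 0.37 (adjusted p = 0.149 from limma), whereas Sqle, the squalene epoxidase, differed by −0.02. The lower ones included the sterol synthesis genes Mvd, Mvk, Lss and Dhcr7, with log2 differences from −0.85 to −0.37. For Mvd, the lowest, DMSO replicate 1 was at 52.7 FPKM, against 29.3 and 25.4 FPKM in DMSO replicates 2 and 3. The groups of Lss overlapped. Of the receptors that Mylip marks, Vldlr and Lrp8 differed by 0.08 and 0.18.

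**Figure D5:**
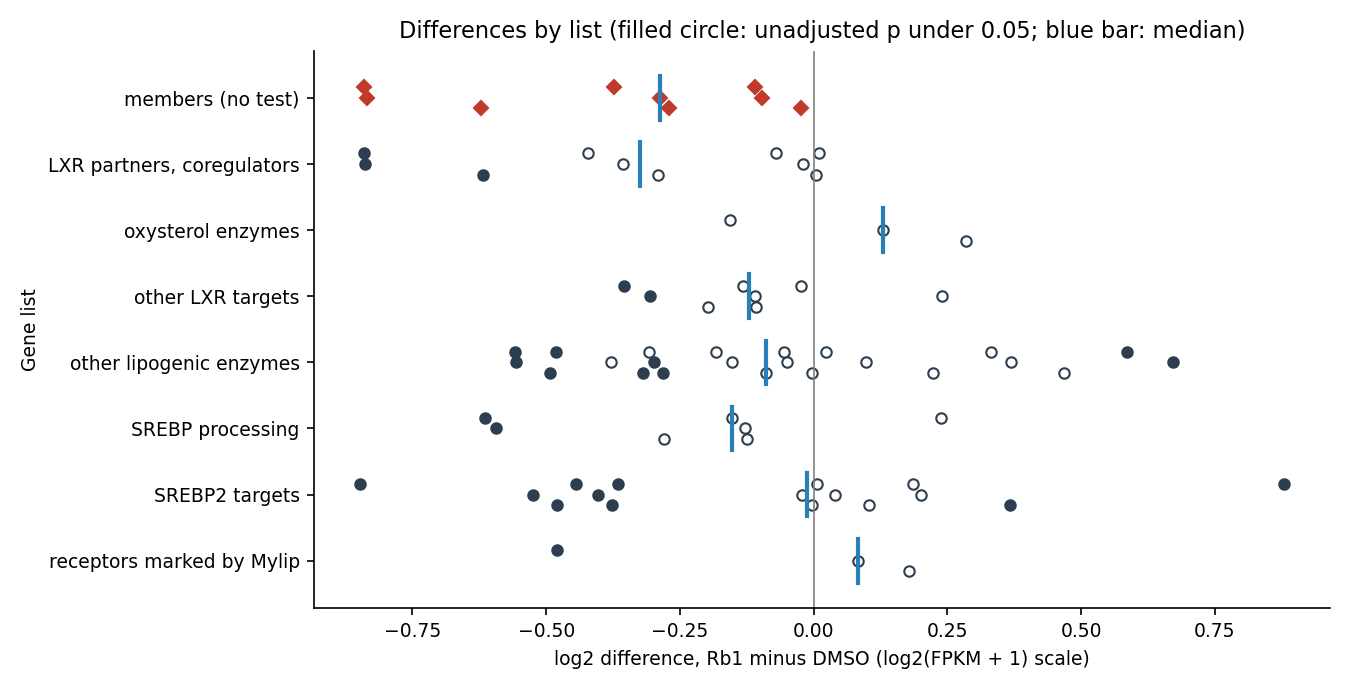
Log2 difference (Rb1 minus DMSO) of each tested gene by list, with a filled circle for an unadjusted p under 0.05 from limma and a blue bar at each median, beside the 9 chosen genes as red diamonds without a test. The list of partners and coregulators lies mostly below 0, and the SREBP-2 targets spread from −0.85 to 0.88.

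The labelled cell type was checked against markers. As a yardstick for the marker counts below, 59% of all 10781 genes in the fit had a lower value with Rb1. Before adjustment, 14.6% of these genes were called lower and 8.27% higher at the same threshold of 0.05. Whether any marker list departs from these shares was not tested. The stromal genes Thy1, Col1a1, Pdgfrb and Pdgfra were abundant in all libraries, with Thy1 at 345.0 to 528.8 FPKM. Of 8 tested stromal markers 7 were lower with Rb1 by value (3 lower and 1 higher at an unadjusted p under 0.05 from limma). Their groups did not overlap for 4 with Rb1 lower and for 1 with Rb1 higher. The summed level was 3200 to 5254 FPKM with Rb1 and 5478 to 6237 FPKM with DMSO, without overlap. This sum was mainly Col1a1, at 1976 to 3829 FPKM with Rb1 and 4218 to 4953 FPKM with DMSO, so it says little of the other stromal markers. The 3 tested endothelial markers, Tie1, Egfl7 and Esam, were also lower, all 3 at that threshold. Endothelial sums were 21.3 to 23.3 FPKM with Rb1 and 32.2 to 49.6 FPKM with DMSO. They were mainly Egfl7, which was at 39.9 FPKM in DMSO replicate 3. The other 4 with a row, Cdh5, Kdr, Tek and Emcn, were below the filter, at most at 0.592 FPKM. Erythroid sums overlapped, at 0 to 101.2 FPKM with Rb1 and 8.87 to 69.8 FPKM with DMSO. Macrophage markers were also detected in every library: Cd68 was at 173.7 to 301.7 FPKM and Ptprc at 4.82 to 7.86 FPKM. Of 13 tested macrophage markers 3 were higher and 10 lower with Rb1 by value, 1 of them (C1qa) at an unadjusted p under 0.05, and their summed level was 1432 to 1515 FPKM with Rb1 and 1545 to 1719 FPKM with DMSO. The part of these marker differences, of the mitochondrial share and of Rb1 replicate 1 in the values of the 10 genes was not tested. Of the 9 adipocyte markers 5 were tested, of which 2 were higher and 3 lower by value, with the summed level 220.7 to 278.1 FPKM with Rb1 and 183.8 to 210.5 FPKM with DMSO, without overlap. At an unadjusted p under 0.05 Fabp4 was higher with Rb1 and Cfd lower, with log2 differences of 0.51 and −0.44 (adjusted p = 0.121 and 0.201 from limma). The sum was mainly Fabp4, which macrophages also express, and the defining genes Adipoq, Plin1, Lep and Cidec were at most at 1.63 FPKM. In bulk RNA, fewer cells of a type and less RNA per cell cannot be told apart.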

How the data were processed

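The deposited RNA-seq table of rat BMSCs covers 6 libraries, 3 with ginsenoside Rb1 and 3 with DMSO, grouped by the treatment label. The RNA was depleted of rRNA and the kit kept the strand. Named in the submitters' processing notes are HISAT2, CASAVA 1.8 and hg19, a human build that does not match the rat identifiers of the table. For the counting program, the sources used here give no name. The authors deposited FPKM values for 22062 rows, and a signal headed as counts, which is the fragment count multiplied by 1 factor per library. Dividing by that factor gave whole fragments, within 0.05, for 99.2% to 99.4% of nonzero values.

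Rows under 1 symbol were summed (233 symbols). The filter kept genes that reached 1 FPKM in 3 or more libraries. With R 4.3.3 and limma 3.58.1, log2(FPKM + 1) was modelled with the group as the only term. The fit was tested on simulated data. The members, lists and tests were chosen with earlier results of these data known. Named are all 10 genes of the choice, list genes with an unadjusted p under 0.05, and up to 4 others per list with the smallest p; list genes named beyond these were chosen after their values were seen. Some list genes that this rule names are not reported here, though the counts include them. Alternatives covered the pseudocount, filter, scaling, variance model, summing of rows, the replicate number as a block, and the removal of each library in turn. After seeing the data, voom on the recovered fragments and scaling without mitochondrial genes were added. Promoters came from RefSeq (GRCr8), and no coordinates were converted between builds.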

Additional observations from a re-analysis of the deposited data

How the results depend on the processing

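Of all genes tested, 2 had an adjusted p under 0.05 from limma. This count was 0 with the replicate number as a block, 0 with voom, 1 with a mean FPKM of at least 5, 1 with median scaling, 1 with scaling without mitochondrial genes, and 0 to 4 on leaving out 1 library. Same-numbered libraries deviated with correlations from −0.04 to 0.16, so the numbers were not taken to pair the samples. The median difference of the 9 genes, −0.29 in the main fit, was −0.23 with median scaling and −0.18 with quantile normalization. It was −0.42 with a pseudocount of 0.1 and −0.44 with voom. With a mean FPKM of at least 5, which kept 5 of them, all 5 lower, it was −0.62. Before adjustment, limma had 892 of all genes higher and 1575 lower at p under 0.05. Median scaling gave 1346 and 1017, and quantile normalization raised the higher share of these calls from 36.2% to 52.5%. Leaving out 1 library gave 524 to 940 higher and 936 to 1635 lower, the fewest without DMSO replicate 1. Of the listed pathway genes, median scaling gave 7 higher and 11 lower, and leaving out 1 library 3 to 5 higher and 12 to 18 lower. Nr1h3 turned to 0.053 with median scaling and to 0.048 with quantile normalization, and lay between −0.093 and 0.016 on leaving out 1 library, and Abca1 turned to 3.9e-04 with quantile normalization; the cause was not tested. The planned count models on recovered fragments were not run, and voom is the only fit to those fragments. Genes near 1 FPKM, such as Acaca and Abcg1, rest on as few as 53 fragments in a library, which limits what can be said of them.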
